A study of Drosophila melanogaster with 2 samples.

Results

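Kept ADD1-GFP peaks at promoters whose annotated transcription starts all read from a single DNA strand are described here (one-strand promoters). A peak belonged to the set when its summit, the position of highest signal, had at least 1 annotated start within 500 bp, when all such starts lay on the same strand, and when it was not on chromosome 4. Of the 4402 kept peaks, 1548 met these conditions. Another 1048 had starts on both strands (divergent promoters), 1740 had no start within 500 bp, and 66 lay on chromosome 4. The source was Drosophila melanogaster embryos, whole, of both sexes and aged 0 to 16 h, from which DNA bound by the tagged protein was enriched and sequenced (ChIP-seq). The line (ADD1-MiMIC-GFP) carries an eGFP exon placed in an intron of ADD1, which fuses the tag to the protein encoded at the native locus, and the precipitation used an anti-GFP antibody, while a separate antibody field of the labels gives CG8290, the systematic name of ADD1. All samples share this tag: the 2 biological replicates, numbered 1 and 3, form the 1 group, control libraries were not analysed here, and no difference between conditions could be tested. A whole embryo mixes all its tissues and stages, so a peak cannot be assigned to a cell type.

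ADD1 is a Drosophila chromatin protein, known for its presence in HP1-rich heterochromatin, with an ADD domain of the kind found in mammalian ATRX. Fly promoters carry different short elements. Those of broadly active genes often hold the DNA replication-related element (DRE), bound by DREF, or the element bound by M1BP, whereas those of developmentally regulated genes often hold a TATA box or an initiator at the start and GAGA sequences bound by Trl. In a genome this compact, many neighbouring genes either share a divergent promoter or follow each other on the same strand.

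The sequences around some of the stronger summits are shown first. The position of the summit before the start and the promoter elements beside it are what the results below turn on. Each is read 5′ to 3′ on the strand of the gene, up to 60 bases on either side of the summit and ending before the start or earlier, from the Release 6 (dm6) assembly. Base 61 of each run is the summit, and capitals mark the motif named with it.
Ugalt, chrX:2703853-2703948, minus strand, strongest peak with a summit outside genes, no motif marked: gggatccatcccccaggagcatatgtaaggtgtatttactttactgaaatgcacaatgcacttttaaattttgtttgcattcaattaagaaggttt
eEF1gamma, chr3R:29220036-29220156, plus strand, DRE octamer: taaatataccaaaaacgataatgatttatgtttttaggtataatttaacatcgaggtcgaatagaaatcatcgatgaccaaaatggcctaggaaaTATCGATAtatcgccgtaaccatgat
CkIIalpha-i1, chr3L:15816903-15816978, plus strand, DRE octamer: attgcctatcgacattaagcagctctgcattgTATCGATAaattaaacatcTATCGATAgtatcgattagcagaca
CG6845, chr3L:146337-146432, plus strand, M1BP element: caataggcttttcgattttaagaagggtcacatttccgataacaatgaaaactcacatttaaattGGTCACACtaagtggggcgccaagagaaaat
beta-PheRS, chr3R:24252680-24252747, minus strand, M1BP element on the other strand: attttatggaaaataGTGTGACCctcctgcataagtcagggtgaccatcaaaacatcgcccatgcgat
elav, chrX:523437-523557, minus strand, motif 6: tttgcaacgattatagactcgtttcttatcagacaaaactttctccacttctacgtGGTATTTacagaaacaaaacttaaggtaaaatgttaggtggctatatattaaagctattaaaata

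The data are lists of called regions, with a signal value for each call computed by the authors' caller. The kept peaks are the thresholded list that the authors deposited, and they were identical to the 4402 calls of highest signal among the 30000 calls made on the pooled replicates. Weaker one-strand calls, 5166 in number, are the pooled calls that met the same positional rule but were not in the kept list. A comparison with them sets strong against weak calls within a single list, and a p-value covers counting error, with calls taken as independent, and not the variation between embryo collections. Signal ran from 96.5 to 1451 over the 1548 peaks, with a median of 144. The lists carry no read totals, and library depth is therefore unknown.

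Calls at one-strand promoters were kept more often than calls at large, but less often than those at divergent promoters. Over all pooled calls off chromosome 4, 15.0% were in the kept list. Of the 6714 calls at one-strand promoters, 23.1% (1548) were kept, against 45.3% (1048 of 2312) at divergent promoters. By a two-sided Fisher's exact test the odds ratio was 0.361, with a 95% exact interval from 0.327 to 0.4 and p = 4.34e-87 after Benjamini-Hochberg adjustment over 7 tests, which holds for the single shares below. Within the kept list, 25.1% of the one-strand peaks (389) and 30.2% of the divergent ones (316) were among the strongest 1100, and the one-strand odds were 0.778 times the divergent ones (Fisher's exact test, 0.650 to 0.930, exact adjusted p = 0.00617). In the calls of replicate 1 alone the odds ratio was 0.837 (exact adjusted p = 0.0503). Within the stronger 50% of the kept list a proportionally smaller top set was counted in place of the 1100. The ratio there was 1.03 (Fisher's exact test, exact adjusted p = 0.851). With a promoter distance of 200 bp the shares were 23.0% and 37.7%, a ratio of 0.495 (exact adjusted p = 5.80e-10).

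Summits lay upstream of the start in most peaks. In the divergent kept peaks 83.6% (876 of 1048) lay upstream of the nearest start. A summit between divergent starts is upstream of either, so that share is partly set by the arrangement of the starts. Of the 1548 summits, 1321 (85.3%, exact interval 83.5 to 87.1%) were upstream of the nearest start, against 3153 of the 5166 weaker calls (61%). Their odds of an upstream summit were 3.71 times as high (3.19 to 4.34, exact adjusted p = 1.40e-77, Fisher's exact test). The median summit was 97.0 bp upstream, with an interquartile range from 208 to 36.8 bp upstream. The weaker calls had their median 46.0 bp upstream and an interquartile range from 213 bp upstream to 92.8 bp downstream. The 50 bp bin with the most peaks was the one from 51 to 100 bp upstream, with 322, followed by the last 50 bp before the start, with 248. Within 100 bp upstream of the start lay 36.8% of the peaks (570) and 21.8% of the weaker calls. Farther than 100 bp downstream the order was the other way, with 6.98% of the peaks (108) and 24.2% of the weaker calls. Summits over 300 bp upstream made up 12.8% of the peaks (198) and 14.9% of the weaker calls.

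**Figure D1:**
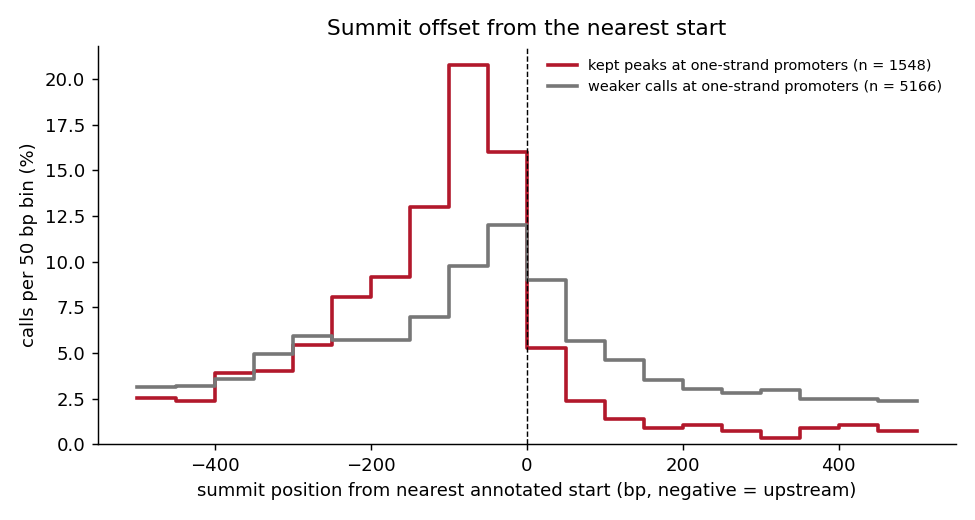
Share of calls (%) per 50 bp bin of the summit's position from the nearest annotated start (bp, negative upstream), for the 1548 kept peaks (red) and the 5166 weaker calls (grey) at one-strand promoters. The kept peaks are concentrated in the 100 bp before the start, and the weaker calls spread over both sides.

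The upstream share ran from 81.9 to 88.8% over the rank bins of the kept list, was lowest in the last of them, and was lower still among weaker calls. It was 84.9% (73 of 86 peaks) at ranks 1 to 250 by signal, 88.6% (303 of 342) at ranks 1001 to 2000 and 81.9% (394 of 481) at ranks 3001 to 4402. Beyond the kept list it was 76.3% (416 of 545 calls) at ranks 4403 to 6000 and 54.8% (829 of 1512) at ranks 20001 to 30000. The strongest peaks had their summits farther from the start. The median was 140 bp upstream at ranks 1 to 250, 156 bp at ranks 251 to 500 and 82.0 bp at ranks 3001 to 4402. These values are given per rank bin as a description, with no test. One-strand calls made up 34.5% of all calls off chromosome 4 at ranks 1 to 250 and 34.8% at ranks 3001 to 4402, and 15.7% at ranks 20001 to 30000. Divergent calls made up 29.3%, 21.0% and 2.14% of the calls in the same bins.

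**Figure D2:**
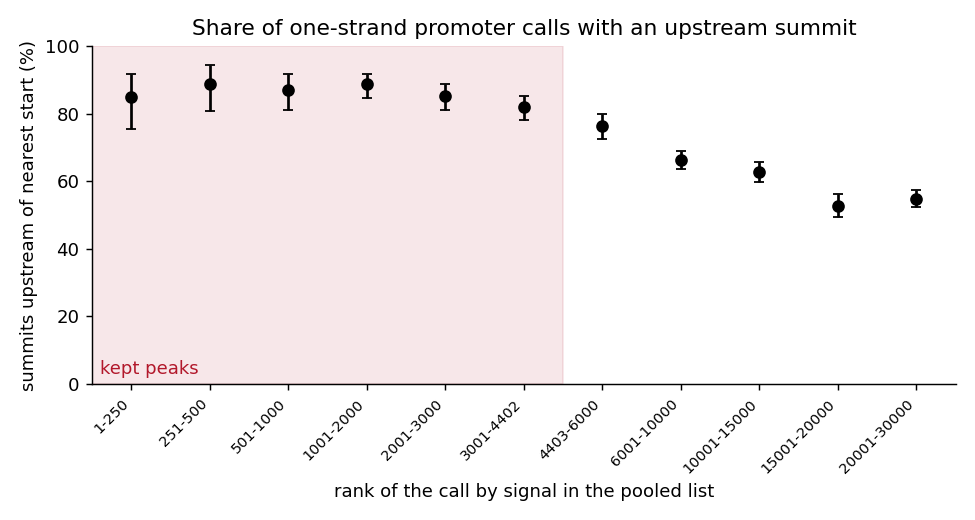
Share (%) of one-strand promoter calls whose summit lies upstream of the nearest start, by rank of the call by signal in the pooled list, with 95% exact binomial intervals. The bins of the kept list (shaded) run from 81.9 to 88.8%, and the weakest bins are at 52.8 and 54.8%.

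Both replicates placed the summit on the same side of the start in nearly all peaks. A matching call, sharing at least 50% of the shorter call, was found in both replicates for 1537 of the 1548 peaks (99.3%). Measured from the start assigned in the pooled list, the summit was upstream in replicate 1 for 1304 of these (84.8%) and in replicate 3 for 1296 (84.3%). It was upstream in both for 1254 (81.6%) and downstream in both for 190 (12.4%), and the replicates were on different sides in 92 (5.99%). The summits of the replicates were a median of 24 bp apart, against 54.0 bp in the weaker calls that matched in both replicates. The pooled list was made from the reads of both replicates, so these matches are not independent of it.

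Most of the peaks were also among the top calls of each replicate. Of all kept peaks off chromosome 4, 76.8% had a match in the strongest 4402 calls of each replicate. The one-strand peaks did so in 78.3% (1212) and the divergent peaks in 79.5% (833), and the one-strand odds were 0.931 times the divergent ones (Fisher's exact test, 0.764 to 1.13, exact adjusted p = 0.494). With replicate calls matched by summits within 100 bp it was 1.02, and within the stronger 50% of the kept list 1.70 (exact adjusted p = 0.859 and 0.371). The median rank was 2092 in replicate 1, with an interquartile range from 1016 to 3320 and the lowest-placed match at 13635. In replicate 3 the median was 2160, the interquartile range ran from 1010 to 3325, and the lowest-placed match was at 22080. Spearman's rho between the replicate ranks was 0.692 across 1537 one-strand peaks and 0.736 across 1036 divergent peaks, a description across peaks, which share their libraries and the authors' control file.

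**Figure D3:**
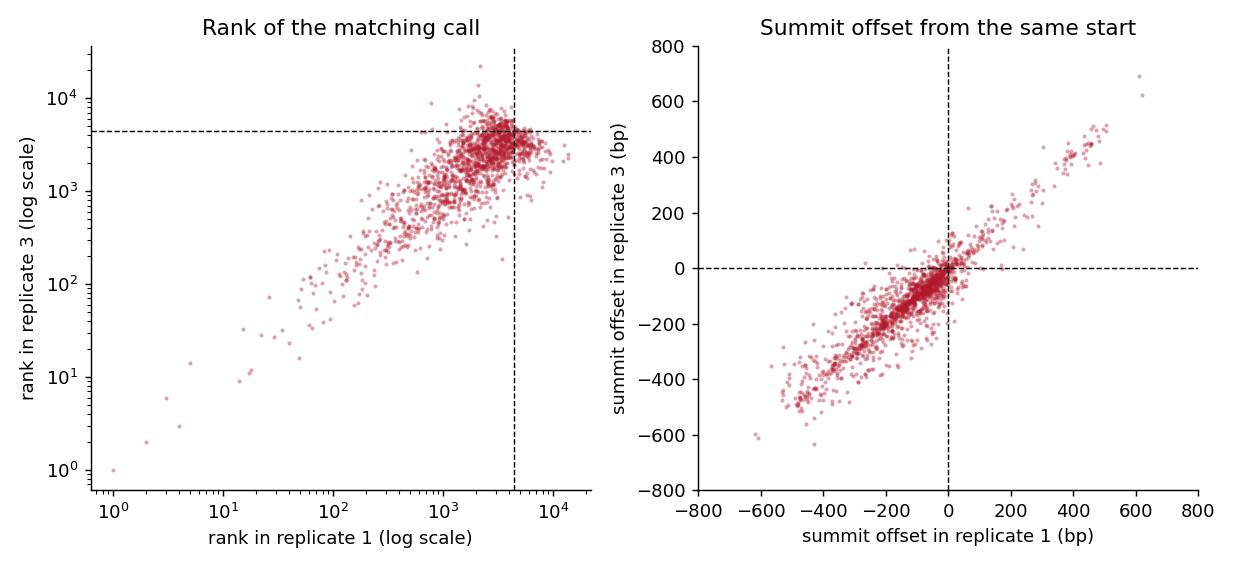
Left, rank of the matching call in replicate 1 against replicate 3 (log axes; dashed lines at rank 4402), 1 point per kept one-strand peak matched in both replicates. Right, summit offset (bp, negative upstream) from the same start in each replicate. The 92 peaks with summits on different sides lie in the upper left and lower right of the panel, close to the start.

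The strongest peaks had several times the median signal of the set. The strongest of all kept peaks (2R, 22514114 to 22514489) had a pooled signal of 1451, with 647 in replicate 1 and 805 in replicate 3, and ranked 1 in each list. Its summit lay in an intron of px (plexus, a gene of wing vein patterning), 206 bp upstream of a px start. The peak of Ugalt, which codes for a UDP-galactose transporter of the Golgi, had 1271 in the pool, 586 in replicate 1 and 690 in replicate 3. Its summit was 36 bp upstream of the start in the pool and in replicate 3 and 41 bp in replicate 1. Next among the one-strand peaks was that of CG14100 (3L, 19590435 to 19590805; 1233, 543 and 687), 90 bp upstream. The peak of CG10479 (1118, 561 and 563) was 469 bp upstream, and that of the non-coding RNA gene lncRNA:CR31840 (946, 498 and 441) was 21 bp downstream, inside its exon.

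Among the 25 strongest one-strand peaks, 24 had their summit upstream of the start, at 26 to 469 bp, and lncRNA:CR31840 was the exception. All 25 ranked within the first 101 calls of replicate 1 and the first 88 of replicate 3, and the replicate summits were at most 115 bp apart. The largest gap was at CkIIalpha-i3, 27 bp downstream in replicate 1 and 88 bp upstream in replicate 3. Protein-coding genes held 22 of the 25 starts. They included ph-p (polyhomeotic proximal, a Polycomb group protein), with a signal of 704 in the pool, 334 in replicate 1 and 377 in replicate 3 and a summit in a ph-p intron 465 bp upstream. Sox14, which codes for a transcription factor of the Sox family, had 701, 319 and 379, with the summit 229 bp upstream. The mitochondrial ribosomal protein genes mRpL41 (691, 270 and 428) and mRpL4 (527, 254 and 283) had summits 144 and 110 bp upstream. Others were gish (a casein kinase, 683, 160 bp upstream), Rtnl1 (a reticulon that shapes the endoplasmic reticulum, 670, 242 bp), larp (a La-related RNA-binding protein, 594, 357 bp), aay (phosphoserine phosphatase, 564, 190 bp, with the summit inside the neighbouring gene Atat) and Btk (a tyrosine kinase, 563, 153 bp). The remaining peaks of the 25 were at CG1888, CG13921, SecCl, lncRNA:CR31044, CG18549, CG3638, lncRNA:CR44339, Tina-1, CG1902 and CG31145, with signals from 523 to 919.

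The gene ADD1 itself had no peak of this kind (0 of 1548). That count leaves out peaks at divergent promoters and peaks assigned to the start of another gene, so it does not describe the whole ADD1 locus. The rule's edge was as follows: the farthest summit lay 500 bp from its start (CAP), the nearest kept peak outside promoters was at 502 bp, 49 peaks lay more than 450 bp away, and 53 kept peaks lay outside within 550 bp. At the threshold of the kept list, the weakest one-strand peak had a signal of 96.5 (stumps), and the strongest one-strand call left out had 96.4 (Hsp60A).

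Most summits were outside annotated genes. Intergenic sequence held 879 (56.8%), introns of the peak's own gene 302 (19.5%), untranslated or non-coding exons 237 (15.3%), other genes 123 (7.95%) and coding exons 7. Weaker calls were intergenic in 34.6% (1789), and the odds of the kept peaks were 2.48 times theirs (Fisher's exact test, 2.21 to 2.79, exact adjusted p = 1.31e-53). This measure overlaps with the upstream share, since a summit upstream of a gene's first start leaves that gene. Intronic summits lay farther from the start, with a median of 176 bp upstream, than intergenic ones, with 104 bp. Exonic summits of the untranslated and non-coding class had their median 21.0 bp downstream. The start was the most upstream one of its gene in 73.9% of the peaks (1144), 68.7% of the weaker calls and 89.5% of the divergent peaks. A single start lay within 500 bp in 1245 peaks (80.4%).

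The strand of the upstream neighbour depended on the promoter distance, because the rule itself leaves out summits with an opposite-strand start in reach. At 500 bp the nearest gene upstream of the start lay on the same strand in 58.0% of the peaks (898) and 52.1% of the weaker calls (2691), and the odds of the kept peaks were 1.27 times those of the weaker calls (Fisher's exact test, 1.13 to 1.43, exact adjusted p = 5.88e-05). At 200 bp the shares were 43.0% and 43.1%, a ratio of 0.996 (exact adjusted p = 0.951), and at 1000 bp they were 61.8% and 55.1%, a ratio of 1.32 (exact adjusted p = 1.58e-06). Where the same-strand neighbour did not overlap the start, its end lay a median of 560 bp away for the peaks and 772 bp for the weaker calls. The median GC content of the 201 bp around the summit was 37.3% in the peaks, 40.3% in the weaker calls and 34.8% in the divergent peaks. The peaks were spread over the arms, with 293 on 2L, 314 on 2R, 312 on 3L, 329 on 3R and 300 on X, and 740 starts (47.8%) were on the plus strand.

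Protein-coding genes held 92.6% of the starts (1433) and 86.0% of those of weaker calls (4445), and the odds of the kept peaks were 2.02 times theirs (Fisher's exact test, 1.64 to 2.50, exact adjusted p = 1.58e-12). The other starts belonged to long non-coding and other ncRNA genes (96, 6.20%, against 10.3% of the weaker calls), tRNA genes (10, 0.646%, against 2.09%), snRNA genes (5), snoRNA genes (2) and pseudogenes (2). The few snRNA starts made up 0.323% of the peaks and 0.213% of the weaker calls, and the snoRNA starts 0.129% and 0.716%. Summits at ncRNA genes had an interquartile range from 207 bp upstream to 178 bp downstream and a median of 60 bp upstream. At protein-coding genes the interquartile range ran from 208 to 42.0 bp upstream, with a median of 99.0 bp.

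The 1548 peaks belonged to 1405 genes, of which 1281 had 1 peak, 113 had 2 and 6 had 3. Genes with any pooled one-strand call numbered 4617, and 30.4% of them had a kept peak. The gene lists are read against this share, with no test. Genes that had calls at divergent promoters alone are not counted in it.

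Genes of the cytoplasmic ribosome and of translation had shares well above 30.4%. Of 43 cytoplasmic ribosomal protein genes with a one-strand call, 35 (81.4%) had a kept peak, and 30 of their 38 peaks were upstream, with a median of 33.0 bp upstream and 31 within 100 bp of the start. The strongest was at RpL23A, with a signal of 372 in the pool, 170 in replicate 1 and 199 in replicate 3 and a summit 74 bp upstream. RpL17 (291, 153 and 135) had its summit 59 bp upstream, RpL30 (288, 129 and 159) 10 bp downstream and RpL38 (258, 111 and 147) 82 bp upstream. Translation initiation and elongation factor genes had a kept peak in 13 of 20 (65.0%). The strongest was at eEF1gamma, a subunit of the elongation factor complex (418, 202 and 214), with its summit 76 bp upstream and the DRE octamer shown above between summit and start. The proteasome, the protease complex of regulated protein breakdown, had 6 of 9 genes with a kept peak, the strongest at Rpn10 (144, 73.2 and 69.4) with its summit at the start itself (0 bp). Mitochondrial ribosomal protein genes had 5 of 12 and oxidative phosphorylation genes 8 of 28 (28.6%), close to the share over all genes. Among the aminoacyl-tRNA synthetases, which load tRNAs, 2 of 8 had one, with beta-PheRS at 268 (129 and 138). In the vacuolar proton pump list it was 1 of 10 (Vha16-1, 215, 103 and 116).

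At glycolytic enzyme and heat shock genes all kept one-strand summits lay more than 100 bp upstream of the start. Of 7 glycolysis genes with a one-strand call, 5 had a kept peak, and their 7 peaks were all upstream, at 105 to 314 bp, with a median of 178 bp. Ldh (lactate dehydrogenase) had a signal of 353 in the pool, 152 in replicate 1 and 202 in replicate 3, with its summit 178 bp upstream. Gapdh2 (302, 133 and 170) was at 146 bp, Hex-A (hexokinase, 257, 87.9 and 174) at 164 bp and Pgk (phosphoglycerate kinase, 227, 118 and 109) at 231 bp. Heat shock genes had a kept peak in 5 of 11 (45.5%), again all upstream, at 106 to 494 bp. Hsp27 (352, 161 and 190), a small heat shock protein gene, had its summit 129 bp upstream, Hsp83 (the fly Hsp90, 294, 123 and 168) 106 bp, Hsp26 (194, 89.4 and 97.3) 130 bp and DnaJ-1 (an Hsp40 cochaperone, 120, 51.4 and 75.3) 147 bp. Over all 1548 one-strand peaks, 85.3% of the summits were upstream and 44.5% (689) lay within 100 bp of the start on either side. Their median was 97.0 bp upstream. At the ribosomal protein genes 31 of 38 summits lay within 100 bp. The differences in position from these genes and from all one-strand peaks were not tested.

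Most of the genes in the small list of insulator and boundary factors had a kept peak, and most of these summits lay downstream of the start. A kept peak was found at 6 of 8 such genes, against 30.4% over all genes. Only 2 of their 7 peaks were upstream, with a median 12 bp downstream. At su(Hw), which codes for the zinc finger protein of the gypsy insulator, the signal was 200 (87.6 in replicate 1 and 111 in replicate 3) and the summit 446 bp downstream, in its untranslated exon. CTCF (159, 78.9 and 85.2) and pita (147, 63.7 and 87.3) had summits 12 bp downstream, and Trl, which codes for the GAGA factor, had 151 (53.2 and 95) with the summit 156 bp downstream. At CTCF the replicate 1 summit was 4 bp upstream. The 12 bp at CTCF and pita is less than the median of 24 bp between replicate summits over the one-strand peaks. The difference in position from the other lists was not tested.

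General transcription machinery had kept peaks at 5 of 9 genes (55.6%) of TFIID and other general factors, against 30.4% over all genes. Among them were TfIIS at 349 (177 in replicate 1, 173 in replicate 3), TfIIA-S at 245, Taf4 at 168 and TfIIEalpha at 116. RNA polymerase subunit genes had 3 of 8 (37.5%, Polr2F at 275, Polr2E at 227, Polr1D at 107) and Mediator genes 1 of 7 (14.3%, MED21 at 326). Mitosis and cell cycle genes had 8 of 15 (53.3%). BubR1, a spindle checkpoint kinase, was at 208, CycB (cyclin B) at 184, Cdk4 at 152 and tws, a phosphatase subunit, at 137. DNA replication genes had 5 of 11 (45.5%), among them Orc1 (136), PolA1 (130), geminin (120) and Mcm2 (115). Polycomb group genes had 5 of 9 (55.6%), with sxc at 181, esc at 145 and Scm at 141 after ph-p. The splicing list had 0 of 3 and the list of HP1 proteins and H3K9 methylation enzymes 0 of 5, both too few genes to set against 30.4%. A kept peak at a divergent promoter was found at 6 of all 22 splicing genes and 6 of all 20 genes of the other list. No share over all genes was computed for divergent promoters, so these counts cannot be read as high or low.

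Developmental and tissue lists were small and fell on both sides of the share over all genes. Early patterning genes had a kept peak in 3 of 16 (18.8%). These were bcd (bicoid, the anterior morphogen, 221 with 101 and 121 in the replicates, 241 bp upstream), wg (wingless, a Wnt ligand, 153 with 91.9 and 65.6, 159 bp upstream) and sog (short gastrulation, a BMP inhibitor, 96.6 with 46.0 and 50.7, 105 bp downstream). Hox genes had 0 of 4 and epidermis and cuticle genes 0 of 5. The nervous system list had 2 of 9, elav, the neuronal RNA-binding protein gene (503 with 193 and 310), and scrt, a zinc finger factor gene (129 with 53.6 and 71.7). The elav summit, 271 bp upstream, lay inside the oppositely oriented gene arg. Muscle genes had 4 of 9 (Tm1, a tropomyosin, at 174, Mef2 at 134, Act87E at 126 and sls at 113), germline genes 3 of 4 (bgcn at 228, bam at 135 and tud at 104), hemocyte genes 1 of 2 (ush at 113) and gut genes 1 of 1 (grn, a GATA factor, at 120).

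In each of the classes of non-coding RNA genes counted here, the share with a kept peak was below 30.4%. Nuclear tRNA genes had one in 10 of 106 (9.43%), with 8 of the 10 upstream, the strongest at tRNA:Ala-TGC-2-1 (385, 188 and 198) with its summit 306 bp downstream and so beyond the short gene. Genes for small nuclear and nucleolar RNAs had 7 of 49, antisense RNA genes 8 of 67, microRNA genes 2 of 19 and lncRNA genes 75 of 403 (18.6%). The replication-dependent histone genes had no one-strand call and could not be read.

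**Figure D4:**
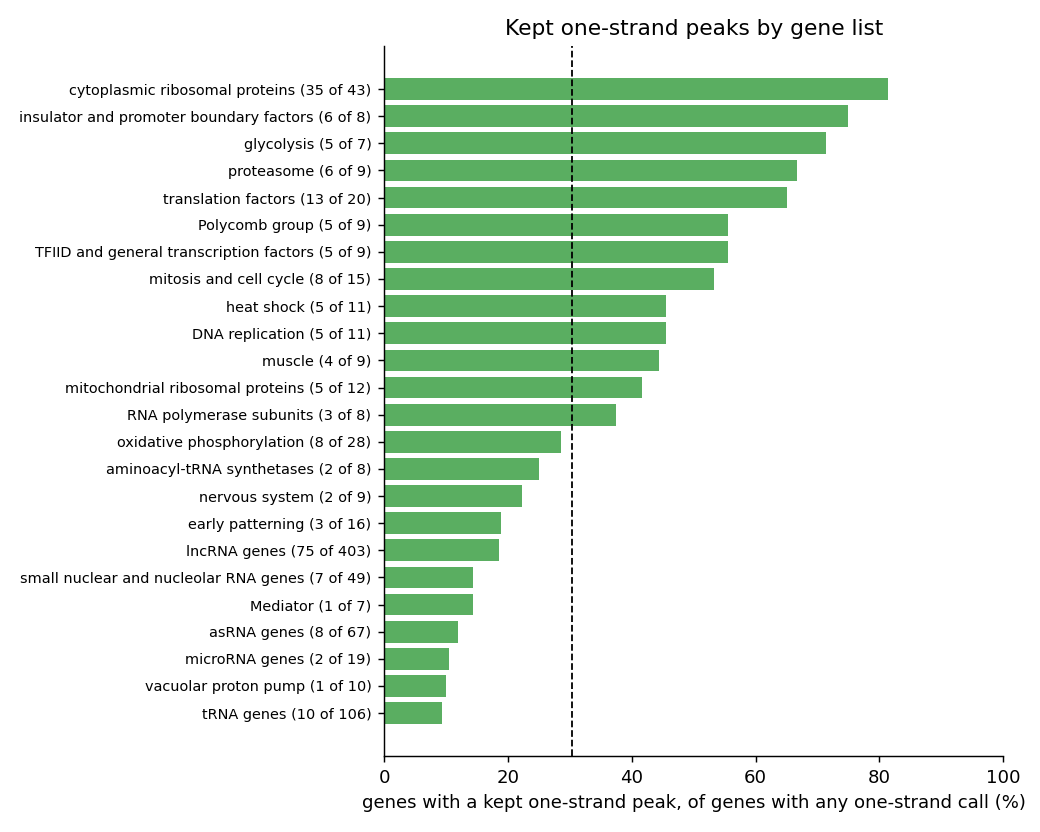
Share (%) of the genes with any pooled one-strand call that had a kept one-strand peak, for the lists with at least 7 such genes; numbers of genes in brackets, dashed line at the share over all 4617 genes (30.4%). Cytoplasmic ribosomal protein genes are highest with 35 of 43 and tRNA genes lowest with 10 of 106.

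Elements of broadly active promoters were more frequent around the summits of the peaks than around those of weaker calls. Letters were searched on both strands within 100 bp of the summit. The share in windows of the same length, centred 97 bp upstream of all 17668 one-strand starts, is given as a reference. Median GC content of the summit windows was 37.3% in the peaks, 40.3% in the weaker calls and 34.8% in the divergent peaks. The motif tests here and below take no account of GC content, and its part in them was not tested. The DRE octamer TATCGATA was found in 9.37% of the peaks (145), 4.36% of the weaker calls and 3.53% of all starts, with odds 2.27 times those of the weaker calls (1.81 to 2.83, p = 1.41e-11 by Fisher's exact test after adjustment over 32 motif tests). The core TCGATA, which the octamer contains, was in 24.5%, 15.2% and 14.1% (exact adjusted p = 5.57e-15, odds ratio 1.81). The M1BP element GGTCACAC was in 6.20% (96), 3.64% and 1.95% (odds ratio 1.75, 1.34 to 2.27, exact adjusted p = 0.000106). Motif 6, GGTATTT, was in 8.33%, 6.41% and 5.43% (exact adjusted p = 0.0217, odds ratio 1.33). The letters TATAAA at any position were in 29.7% of the peaks, 25.9% of the weaker calls and 31.5% of all starts (exact adjusted p = 0.0104, odds ratio 1.21). An arbitrary control octamer, ACGTTACG, also passed with 10 peaks and 13 weaker calls (odds ratio 2.58, 1.01 to 6.38, exact adjusted p = 0.0494). With the stronger 50% of the kept list in place of all peaks, the DRE octamer and core and the CA repeat passed, and the M1BP element (1.44) and motif 6 (1.25) did not. Motif 6 also missed the threshold at a promoter distance of 200 bp, with 1 call per run of overlapping calls and with a window of 50 bp, and TATAAA with that window.

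The GAGA pentamer, the CA repeat and the initiator at the start were less frequent in the peaks than in the weaker calls, each losing the call under some alternatives. The GAGA pentamer GAGAG was in 24.1% (373) against 27.4% (exact adjusted p = 0.0217, odds ratio 0.840) and in 26.4% of all starts. In replicate 1 alone the ratio was 0.892 (exact adjusted p = 0.135), and it also missed the threshold at 1000 bp, with transposable element starts, in the stronger 50% of the kept list and with a window of 200 bp (exact adjusted p from 0.0705 to 0.641). The CA repeat CACACACA was in 3.17% (49) against 6.29% (exact adjusted p = 4.46e-06, odds ratio 0.487), and on the sense strand alone the ratio was 0.689 (exact adjusted p = 0.140). The initiator letters TCAGT on the sense strand from 5 bp before to 6 bp after the start were at 8.98% of the starts (139), 11.9% for weaker calls and 9.54% of all starts (odds ratio 0.727, 0.595 to 0.885, exact adjusted p = 0.00399). It missed the threshold at 1000 bp (exact adjusted p = 0.0524), with transposable element starts (0.215) and in the stronger 50% of the kept list (0.132). TATAAA from 40 to 20 bp upstream was at 2.91% of the starts of the peaks (45), 3.87% for weaker calls and 6.09% of all starts (odds ratio 0.743, 0.523 to 1.04, exact adjusted p = 0.128). The E-box CAGCTG, the Zelda site CAGGTAG, the PHO core GCCAT, the CRE TGACGTCA, the run AAAAAAAA and TCAGT at any position did not pass either (exact adjusted p from 0.138 to 0.993).

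Divergent and one-strand kept peaks differed in 8 of the 16 motif tests, and most of these differences depended on the promoter distance or the window. The DRE octamer was in 13.4% of the divergent peaks, against 9.37% (odds ratio for one-strand peaks 0.670, 0.520 to 0.865, Fisher's exact test, exact adjusted p = 0.00540), and the core in 35.2% against 24.5% (exact adjusted p = 3.22e-08, odds ratio 0.597). TATAAA at any position (exact adjusted p = 1.93e-06, odds ratio 0.651) and the E-box (0.711, exact adjusted p = 0.0146) were likewise more frequent at divergent promoters. The initiator at the start was at 8.98% of the one-strand and 2.48% of the divergent peaks (odds ratio 3.88, 2.51 to 6.19, exact adjusted p = 3.55e-11). GAGAG was in 24.1% against 15.2% (exact adjusted p = 1.66e-07, odds ratio 1.77), the CA repeat in 3.17% against 1.72% (1.87, exact adjusted p = 0.0462) and TATAAA at its place before the start in 2.91% against 1.34% (2.21, exact adjusted p = 0.0217). The CA repeat missed the threshold under 6 alternatives (exact adjusted p from 0.0709 to 0.756). The placed TATAAA missed it in either replicate alone (1.70 and 1.94, exact adjusted p = 0.119 and 0.0506). It also missed it at a promoter distance of 1000 bp (1.67, exact adjusted p = 0.0984) and in the stronger 50% of the kept list (1.88, exact adjusted p = 0.238). The M1BP element was in 6.20% against 8.02% (0.759, 0.554 to 1.04, exact adjusted p = 0.133). With a promoter distance of 200 bp, only the DRE core (0.707) and TATAAA at any position (0.751) passed. The DRE octamer was then at 0.851 (exact adjusted p = 0.422), GAGAG at 1.31 (exact adjusted p = 0.104) and the initiator at the start at 1.99 (exact adjusted p = 0.0842). With a motif window of 50 bp, the DRE octamer (0.905, exact adjusted p = 0.661), the DRE core (0.844, exact adjusted p = 0.199), the E-box and the CA repeat did not pass.

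The DRE and M1BP elements lay close to the start in most peaks that held them, on either side of the summit. The octamer nearest the summit had its centre a median of 46.5 bp upstream of the start and 11.5 bp downstream of the summit, and 127 of 145 were upstream of the start. The M1BP element had its median 22.0 bp upstream of the start, with 67 of 96 upstream of it, and 66 of 96 (68.8%) read in the sense of the gene. GAGAG had its median 114 bp upstream. Only occurrences within 100 bp of the summit were searched, so these positions are tied to those of the summits. The summits lay a median of 50 bp upstream where an M1BP element was present, 67.0 bp with a DRE octamer, 95 bp with motif 6, 110 bp with TATAAA at its place before the start, 138 bp with GAGAG and 217 bp with an initiator at the start. The sets share members, and the differences between these medians were not tested. Most peaks, 1173 (75.8%), held none of the DRE octamer, the M1BP element, motif 6 and a placed TATAAA, and only 13 held both the octamer and the M1BP element.

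**Figure D5:**
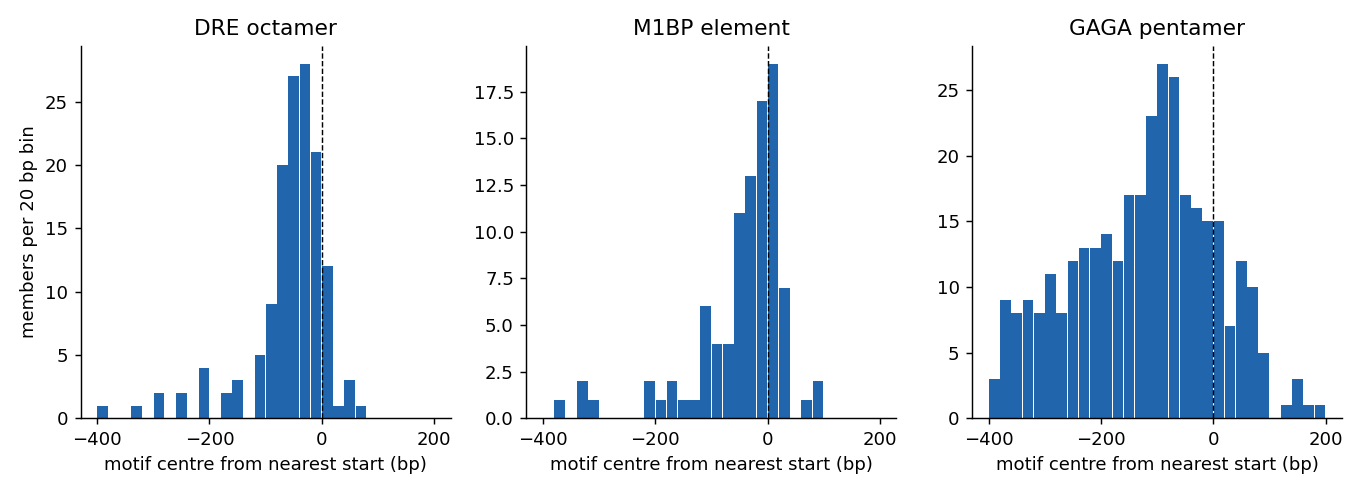
Number of kept one-strand peaks per 20 bp bin of the position (bp, negative upstream) of the motif occurrence nearest the summit, measured from the nearest start (dashed line), for the DRE octamer, the M1BP element and the GAGA pentamer. The DRE and M1BP elements gather near the start, with medians of 46.5 and 22.0 bp upstream, and GAGAG is spread around a median of 114 bp upstream.

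By rank, the shares are given without a test, and those at the top rest on few peaks. At ranks 1 to 250 the DRE octamer was in 6.98% of 86 peaks, the M1BP element in 2.33% and motif 6 in 9.30%. At ranks 2001 to 3000 they were in 12.4%, 6.22% and 9.19% of 370 peaks, and just below the kept list, at ranks 4403 to 6000, in 11.2%, 6.97% and 9.54% of 545 calls. At ranks 20001 to 30000 the shares were 1.85%, 1.59% and 4.70% of 1512 calls.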

How the data were processed

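The data are narrowPeak lists on dm6 from 1 group with 2 biological replicates, per the labels. The authors deposited 30000 calls for each replicate and for the pool, and a thresholded list of 4402 peaks from the irreproducible discovery rate procedure, per the deposited file lists. The sources used here do not name the aligner or the caller. The signal of each call is the authors' own value, on a scale that depends on the library; it was used to rank calls within a list and is printed as deposited. Chromatin was sheared to 200 to 800 bp, per the labels. Lists on dm3 were not used here.

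Summits were placed against starts of the Ensembl release 115 annotation without transposable elements, 23697 on the chromosome arms. Sequence came from the RefSeq copy of Release 6. Coordinates are 1-based. Replicate calls matched at 50% of the shorter call, the strongest match being taken. Two-sided Fisher's exact tests with conditional odds ratios compared shares, adjusted by the Benjamini-Hochberg method over 7 single tests and over 32 motif tests, at a threshold of 0.05. Intervals are 95% exact intervals for counting error. The tests were checked on simulated data. Python 3.11.15, numpy 2.4.6, scipy 1.17.1 and matplotlib 3.10.9 were used.

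The genes named are those of the 25 strongest peaks and up to 4 per list with the strongest peaks. For the sequences, strong peaks that held a motif were taken, none of them on 2R, and a part of them is printed. They are not always the strongest with their motif. The peak at mRpL41 on 2R, with motif 6, ranked 29 in the kept list, and that at elav ranked 85. The peak at CG6845 and that at CkIIalpha-i1 are named for their sequence. The set, the 32 gene lists and the 14 motifs were chosen with earlier results of these data known. Alternatives were promoter distances of 200 and 1000 bp, midpoints for summits, other sets of starts, single starts, the most upstream start, the stronger 50% of the kept list, each replicate alone, 1 call per run of overlapping calls, other matching rules, windows of 50 and 200 bp and motifs on the sense strand.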

Additional observations from a re-analysis of the deposited data

Results flagged for a closer look

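Chromosome 4, left out of the set above, also carried kept peaks at one-strand promoters, 31 of the 66 kept peaks there. The set above holds none of them because its rule leaves that chromosome out. These 31 peaks came from 145 pooled one-strand calls on chromosome 4. Off chromosome 4 a similar share of the one-strand calls was kept, 1548 of 6714 (23.1%). Of the 4336 kept peaks off chromosome 4, 1548 were at one-strand promoters. Neither share was tested against that of chromosome 4. Of the 31 summits, 30 were upstream of the start. The strongest were at Gyf (signal 287), PlexA (258), CG32017 (256) and CG31998 (214), with summits 105, 187, 52 and 75 bp upstream.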

How the results depend on the processing

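The upstream, intergenic and protein-coding shares and the lower kept share against divergent promoters passed the threshold in the same direction under all alternatives computed for them. The upstream odds ratio ran from 2.91 (promoter distance of 1000 bp) to 4.4 (stronger 50% of the kept list), and from 3.36 to 3.50 with 1 replicate left out. The same-strand neighbour ratio was 0.996 with a promoter distance of 200 bp. The odds ratio for the strongest 1100 was 0.495 with a promoter distance of 200 bp and 0.814 to 0.837 with a replicate left out. In the stronger 50% of the kept list, where a proportionally smaller top set was counted, it was 1.03. The ratio for top calls of both replicates was 1.70 in the stronger 50% and 1.02 with summits matched within 100 bp, and it has no value without a replicate. The protein-coding share has none when only coding starts are used. Against weaker calls 9 motif tests passed, and 3 in the stronger 50%. Against divergent peaks 8 passed, 2 with a promoter distance of 200 bp and 5 with a motif window of 50 bp. The causes were not tested. Of the alternatives for single motifs, 326 left the call as it was, 41 ended it, 16 gave a call and 0 turned a called direction. No paired analysis was possible because the replicates form a single group. Read depth is unknown, both replicates share the authors' control file, and without an untagged control the share of calls that any precipitation would give at promoters cannot be told apart.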

Other observations

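Several genes carried more than 1 kept one-strand peak. Rtnl1, jigr1 and RapGAP1 had 5 one-strand peaks each, and Moe (moesin, which links actin to the membrane) and Ptpmeg2 (a tyrosine phosphatase) had 4 each. At Ptpmeg2 the peaks ranked 326, 615, 718 and 1029 in the kept list, and at Moe 1512, 1859, 2264 and 3875. The peaks of Rtnl1 ranked 34, 926, 1036, 2156 and 2538. Some of these calls overlap or match the same replicate call: 61 of the 1487 starts were nearest to more than 1 peak, so a count of peaks is not a count of separate sites.

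Short words other than the listed motifs were sought after the data were seen. The 5 words of 7 letters, within 50 bp of the summit, that differed most between peaks and weaker calls on 3 arms (2L, 2R and 3L) were read again on the other 2 (3R and X), as a description with no test. ACTATCG was in 5.98% of the peaks and 2.04% of the weaker calls on the first arms, and in 7.47% and 2.65% on the others. It shares letters with the DRE. AGTGTTG, which does not, was in 6.09% and 2.72% and then in 4.93% and 1.83%. ACACTGC was in 4.79% and 1.81%, then 3.18% and 2.02%. AGGGTTG was in 2.07% and 0.550%, then 1.91% and 1.01%. AGCTATA was in 2.61% and 0.776% and then in 1.27% and 1.30%, so its difference was not seen on the other arms. In the divergent kept peaks of 3R and X, ACTATCG was in 7.67% and AGTGTTG in 7.44%.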
